A study of Mus musculus with 22 samples.

Results

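Expression of complement genes was measured in white fat of mouse bone marrow chimeras on a high-fat diet. The set covers the subunits of C1q (C1qa, C1qb and C1qc), the components C3, C4b, C6 and factor B (Cfb), and the receptors C3ar1 and C5ar1. The genes were chosen by symbol: each feature of the deposited array table whose platform annotation carries one of these 9 symbols was taken. This gave 8 genes with 1 feature each, of 19337 genes in the table, and C3 was not analysed here. All 8 passed the filter that left out the dimmest 25% of genes, so all 8 were tested.

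Complement is a cascade of plasma proteins that marks microbes and dying cells. C1q, assembled from the products of C1qa, C1qb and C1qc and made largely by macrophages, starts the classical pathway, which then cleaves C4. Factor B supplies the protease of the alternative pathway, and C6 is one of the late components that build the membrane attack complex, a pore in the target membrane. The small fragments released from C3 and C5 act through the receptors C3aR1 and C5aR1, which myeloid cells carry. In white fat, C1q subunits and both receptors are commonly found in macrophages, whereas adipocytes and stromal cells also make C4 and factor B.

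Each array held total RNA of inguinal subcutaneous fat (ingWAT) or epididymal fat (epiWAT) of male C57BL/6J mice, taken after 6 weeks of marrow reconstitution and 14 further weeks on a diet with 60% of calories from fat. Donor marrow was Gipr-/-S100a9-/- (double knockout, 3 ingWAT and 4 epiWAT arrays), Gipr-/- (3 and 4 arrays) or WT (4 and 4 arrays). Gipr encodes the receptor of the gut hormone GIP and S100a9 an alarmin subunit of neutrophils and monocytes. Only the marrow was mutant in the chimeras with Gipr-/- marrow, whose recipients were WT; the sources used here do not name the recipient of double-knockout marrow. Cells made by the donor marrow carry the deletions, while adipocytes and most stromal cells belong to the recipient. The comparisons ask how fat differs with marrow that lacks the GIP receptor, and with marrow that also lacks S100a9. Values are logarithms, read here as log2, so that a difference of 1 is 2-fold. Nothing in the labels ties each array to its own mouse, so the p-values reflect only how far these samples vary, which may be technical.

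The targeted genes were not consistently lower with knockout than with WT marrow in whole fat, so they do not check the labels. All their group means lay below the median of all gene means, 6.33. In ingWAT, Gipr averaged 5.41 ± 0.44 with double-knockout, 5.10 ± 0.51 with Gipr-/- and 5.01 ± 0.51 with WT marrow (SD, n = 3, 3 and 4), and S100a9 averaged 5.82 ± 0.77, 6.16 ± 0.81 and 5.65 ± 0.61 in the same order. In epiWAT, Gipr averaged 4.88 ± 0.99, 5.38 ± 0.24 and 4.78 ± 0.22 and S100a9 5.18 ± 0.33, 5.18 ± 0.60 and 5.37 ± 0.40 (SD, n = 4 each). The sources used here do not place the probes relative to the deleted parts. Several arrays stood apart in their content of other cells, which was read from lists of marker genes as the mean log2 value of each list. Among ingWAT arrays with double-knockout marrow, arrays 1 and 3 had B cell marker means of 10.77 and 10.70, against 4.23 in array 2 and between 4.13 and 4.90 in the 7 other ingWAT arrays. Their T cell marker means were 10.80 and 10.81, against 5.78 in array 2 and 5.19 to 6.25 elsewhere in ingWAT. The skeletal muscle marker mean ranged from 7.95 to 15.81 in double-knockout, from 7.96 to 11.46 in Gipr-/- and from 6.29 to 18.28 in WT ingWAT. In epiWAT, double-knockout array 1 had an epididymis marker mean of 11.50 (other epiWAT arrays 4.86 to 9.05) and Gipr-/- array 1 a testis germ cell marker mean of 13.62 (other epiWAT arrays 4.27 to 9.49). Markers of mesothelium, the lining of visceral fat, averaged 4.03 to 4.52 in ingWAT arrays and 5.88 to 8.01 in epiWAT arrays. Adipocyte markers averaged 15.32 to 17.50 over all 22 arrays. Values without the arrays that stood apart are given beside the results that moved most.

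The 3 C1q genes lie side by side on chromosome 4 within 18.7 kb (chr4:136880126-136898844, GRCm38.p6, as RefSeq places them). C4b and Cfb both lie in a stretch of 134 kb on chromosome 17 (chr17:34728139-34862514), C3ar1 on chromosome 6 (chr6:122847140-122856157) and C6 on chromosome 15 (chr15:4727067-4804045). C5ar1 (chr7:16246743-16259540) is on the chromosome of Gipr, with a gap of 2.9 Mb between them. The RefSeq promoter table, which gives 250 bases before and 50 after a listed start site, held windows for 5 of these 8 genes. For C1qc, C6 and C5ar1 the start site used lies inside the RefSeq span of the gene. More than 50 bases of those windows thus fall within the gene. The windows of C1qb and C1qc are shown because their transcripts vary together, and those of C6 and C5ar1 because these genes differ most between kinds of marrow. Capitals mark the motif matches found on either strand.
C1qb, chr4:136886151-136886450, minus strand: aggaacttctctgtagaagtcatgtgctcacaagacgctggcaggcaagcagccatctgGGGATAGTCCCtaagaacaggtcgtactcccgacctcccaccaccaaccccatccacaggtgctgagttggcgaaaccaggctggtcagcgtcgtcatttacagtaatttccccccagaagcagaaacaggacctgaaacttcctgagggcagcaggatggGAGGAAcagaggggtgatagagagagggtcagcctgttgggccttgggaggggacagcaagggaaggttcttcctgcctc
C1qc, chr4:136892865-136893164, minus strand: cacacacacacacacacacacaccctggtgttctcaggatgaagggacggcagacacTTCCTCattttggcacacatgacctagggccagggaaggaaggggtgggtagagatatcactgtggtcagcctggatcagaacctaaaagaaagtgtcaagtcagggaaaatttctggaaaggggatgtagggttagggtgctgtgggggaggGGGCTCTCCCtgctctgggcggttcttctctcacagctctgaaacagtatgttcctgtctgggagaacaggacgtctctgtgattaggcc
C6, chr15:4726960-4727259, plus strand: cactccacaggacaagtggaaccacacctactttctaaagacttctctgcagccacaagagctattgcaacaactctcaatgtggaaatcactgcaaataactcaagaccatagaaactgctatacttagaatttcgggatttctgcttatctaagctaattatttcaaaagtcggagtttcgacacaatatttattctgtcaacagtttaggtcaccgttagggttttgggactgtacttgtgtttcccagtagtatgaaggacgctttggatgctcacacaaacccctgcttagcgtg
C5ar1, chr7:16259289-16259588, minus strand: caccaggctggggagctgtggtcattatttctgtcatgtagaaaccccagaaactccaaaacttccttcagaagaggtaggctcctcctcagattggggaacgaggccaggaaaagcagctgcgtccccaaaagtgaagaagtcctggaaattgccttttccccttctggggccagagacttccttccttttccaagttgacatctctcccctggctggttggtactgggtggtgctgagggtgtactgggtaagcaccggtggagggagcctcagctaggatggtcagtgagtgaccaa
The core motifs of 4 factors known from myeloid genes were searched: GAGGAA (PU.1, an ETS factor), TGCTGAC (a MAF half-site), TTGCNNAA (C/EBP) and GGGANNNNCC (NF-kappaB). C1qb held GAGGAA at -30 and a pair of overlapping NF-kappaB matches, 1 on each strand, at -191 and -190. Positions are counted from the start site used for the window, whose first base is at -250. C1qc held the ETS core at -193 and an NF-kappaB match at -40, both on the opposite strand. The windows of C6, C5ar1 and C3ar1 held none of these letters. Such matches are common: of 32851 windows in the table, 28.3% held the ETS core, 20.7% the NF-kappaB letters, 10.8% the C/EBP letters and 4.67% the MAF half-site.

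In inguinal fat, C6 was the 1 gene of these 8 that passed the threshold between kinds of marrow, and it did so in 1 of 3 comparisons. Its log2 values were 6.11, 6.84 and 7.71 with double-knockout marrow and 11.25, 12.30 and 10.47 with Gipr-/- marrow, against 7.57, 10.21, 8.35 and 8.09 with WT marrow. Each Gipr-/- array lay above each array of the other kinds, while double-knockout and WT arrays overlapped. C6 fell by 4.45 on the log2 scale (SE 0.66, 21.9-fold) with double-knockout relative to Gipr-/- marrow, with a limma adjusted p of 0.00722. Of these 8 genes 1 was thus called in that comparison, in which 505 of 14502 genes (3.48%) were called, 121 higher and 384 lower. Without both arrays that were high in lymphocyte markers the difference was as large, at -4.50, but with a single double-knockout array left, which the fit takes to vary like the other groups, the adjusted p was 0.129. Without Gipr-/- array 2, the highest, the difference was -3.97 with an adjusted p of 0.0519. With the skeletal muscle marker mean as a covariate it was -4.47 (adjusted p = 0.0106).

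With Gipr-/- marrow C6 averaged 11.34 ± 0.92 (SD, n = 3) in ingWAT, against 8.56 ± 1.15 (SD, n = 4) with WT marrow. The difference of 2.78 (SE 0.62, 6.88-fold) did not pass the threshold, with a limma adjusted p of 0.0699, although the groups did not overlap. Of these 8 genes, 0 were called between Gipr-/- and WT marrow in ingWAT, where 34 of 14502 genes (0.234%) were. The C6 difference passed with array weights (adjusted p = 0.037), with all 22 arrays in 1 fit (adjusted p = 0.044) and without double-knockout array 2 (adjusted p = 0.0477). With the muscle covariate it was 2.82 (adjusted p = 0.131). With double-knockout marrow C6 averaged 6.89 ± 0.80 (SD, n = 3), and its difference from WT marrow was -1.67 (SE 0.62, limma adjusted p = 0.267). In that comparison 0 of these 8 genes were called and 0 of 14502 genes in all (0.0%), with 1958 genes at an unadjusted p under 0.05.

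The receptors averaged lowest with double-knockout marrow in ingWAT, without passing the threshold over all genes. C5ar1, the receptor of the C5a fragment that draws neutrophils and macrophages, had log2 values of 6.16, 6.40 and 6.33 with double-knockout marrow and 8.16, 7.04 and 7.77 with Gipr-/- marrow, against 8.30, 9.01, 9.03 and 8.52 with WT marrow. The 3 groups formed 3 steps with no overlap between any pair. The difference was -2.42 between double-knockout and WT marrow (SE 0.32, 5.35-fold, limma adjusted p = 0.0591) and -1.36 between double-knockout and Gipr-/- marrow (SE 0.34, adjusted p = 0.0512). Between Gipr-/- and WT marrow it was -1.06 (SE 0.32, limma adjusted p = 0.146). The adjusted p of the difference between double-knockout and WT marrow equalled the lowest of all genes in that comparison. The difference passed under 5 of 8 planned settings, among them quantile normalization (adjusted p = 0.0432) and 1 fit of all arrays (0.022), and with the muscle covariate (-2.37, adjusted p = 0.0322). Without both lymphocyte-high arrays it was -2.32 (adjusted p = 0.178), with 1 double-knockout array left. The difference from Gipr-/- marrow passed under 4 of 8 planned settings, with an adjusted p of 0.0168 to 0.0896 over them.

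C3ar1, the receptor of the C3a fragment, had values of 7.26, 9.97 and 8.21 with double-knockout marrow and 10.90, 10.16 and 10.57 with Gipr-/- marrow, against 10.04, 10.97, 9.05 and 10.56 with WT marrow. The lowest values were those of double-knockout arrays 1 and 3, the ones with high B and T cell markers, while array 2 lay within the WT range. The difference between double-knockout and Gipr-/- marrow was -2.06 (SE 0.62, limma adjusted p = 0.0923). It was -2.81 (adjusted p = 0.0047) without double-knockout array 2, and -0.57 (adjusted p = 0.741) without arrays 1 and 3. The part of the lymphocyte content in this difference was not tested. Relative to WT marrow the C3ar1 difference was -1.67 (SE 0.58, adjusted p = 0.240). It was -2.42 (adjusted p = 0.0127) without array 2 and -0.18 (adjusted p = 0.933) without arrays 1 and 3. Between Gipr-/- and WT marrow C3ar1 differed by 0.39 (SE 0.58, adjusted p = 0.818).

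The C1q subunits were less separated in ingWAT. C1qb spanned 9.42 to 11.55 with double-knockout, 11.19 to 12.76 with Gipr-/- and 10.58 to 11.86 with WT marrow, and the groups overlapped. Its difference between double-knockout and Gipr-/- marrow was -1.40 (SE 0.55, limma adjusted p = 0.184), that of C1qc -0.71 (SE 0.34, adjusted p = 0.294) and that of C1qa -0.24 (SE 0.40, adjusted p = 0.819). Without both lymphocyte-high arrays the sign of the C1qa difference turned, to 0.60 (adjusted p = 0.623), and the C1qb difference was -0.47 (adjusted p = 0.791). Without double-knockout array 2 instead, which leaves both lymphocyte-high arrays, C1qb passed at -1.87 (adjusted p = 0.0495). Between Gipr-/- and WT marrow the 3 subunits differed by -0.13, 0.74 and 0.19 for C1qa, C1qb and C1qc (limma adjusted p between 0.546 and 0.921). Between double-knockout and WT marrow they differed by -0.37, -0.66 and -0.52 (adjusted p between 0.526 and 0.731), and without both lymphocyte-high arrays by 0.47, 0.27 and -0.66.

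Cfb and C4b, components that recipient cells can also make, did not pass the threshold in ingWAT. Cfb was 10.55, 11.16 and 11.44 with double-knockout and 12.37, 11.97 and 11.55 with Gipr-/- marrow, so the groups did not overlap, with a difference of -0.91 (SE 0.31, limma adjusted p = 0.133). WT arrays lay between 11.07 and 11.86. C4b was lower with Gipr-/- marrow (13.91 to 14.30) than with WT marrow (14.32 to 14.97), again without overlap, by a difference of -0.52 that did not pass (SE 0.23, limma adjusted p = 0.311). With double-knockout marrow C4b was 14.13, 14.71 and 14.74, within the range of WT arrays or below it, and its difference from Gipr-/- marrow was 0.36 (SE 0.25, adjusted p = 0.494). C4b has a near-identical neighbour, C4a, and the probes may not tell their transcripts apart.

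Non-overlap was common among all genes in these small groups. Between double-knockout and Gipr-/- marrow in ingWAT, 4 of these 8 genes did not overlap (C3ar1, C5ar1, C6 and Cfb, all lower), against 22.3% of all genes tested. Between Gipr-/- and WT marrow it was 3 of 8 (C4b, C5ar1 and C6), against 15.4%, and between double-knockout and WT marrow 1 of 8 (C5ar1), against 11.0%. The median difference of the 8 genes was -1.14 for double-knockout minus Gipr-/- marrow, with 7 of 8 negative, while the median over all genes was -0.03. It was 0.29 for Gipr-/- minus WT marrow (all genes 0.03) and -0.59 for double-knockout minus WT marrow (all genes -0.01). The macrophage marker list of 12 genes had array means of 9.09 to 9.66 with double-knockout, 9.71 to 10.22 with Gipr-/- and 9.33 to 10.08 with WT marrow, and in bulk tissue fewer cells of a type and less RNA per cell cannot be told apart. Of these 12 markers, 2 fell with double-knockout relative to Gipr-/- marrow (Mertk, a receptor for dying cells, and Mrc1, the mannose receptor) and 0 rose, where 384 of 14502 genes fell. The difference was positive for 3 of the 12 macrophage markers, up to 1.34. A list of 8 genes of lipid-associated macrophages had array means of 7.73 to 8.23 with double-knockout, 9.07 to 9.77 with Gipr-/- and 7.60 to 9.59 with WT marrow, and 3 of the 8 fell with double-knockout relative to Gipr-/- marrow (Atp6v0d2, Lgals3 and Lipa). The part of macrophage content in the differences of C6 and the receptors was not tested.

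**Figure D1:**
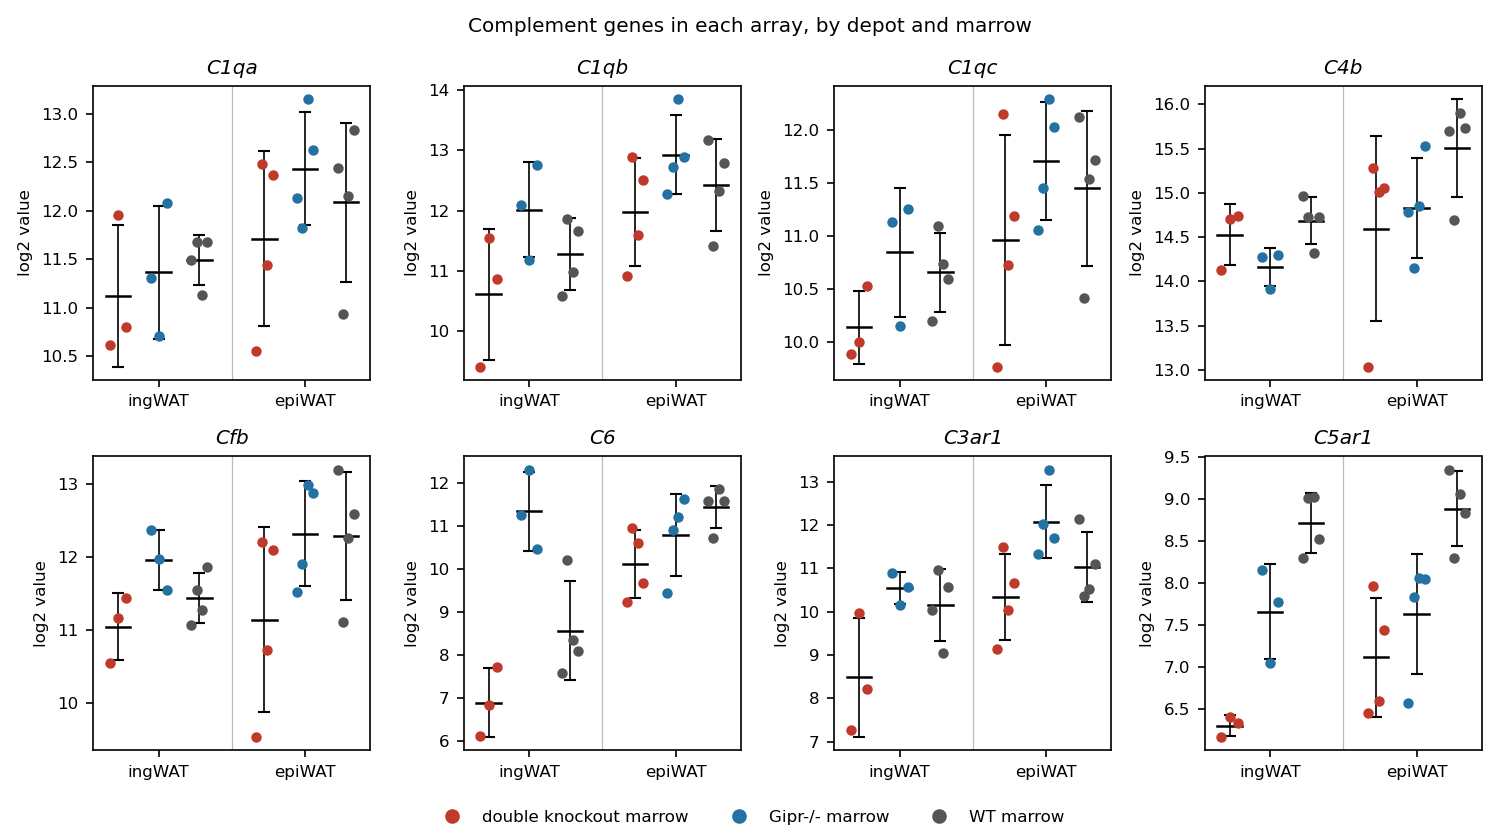
Log2 value of each complement gene in every array (points), with the mean (line) and SD (bars) of each group, for ingWAT (3 double-knockout, 3 Gipr-/- and 4 WT arrays) and epiWAT (4 arrays of each kind of marrow). In ingWAT, C6 sits at 10.47 to 12.30 with Gipr-/- marrow, above every array with double-knockout or WT marrow, and C5ar1 falls into 3 groups that do not overlap.

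**Figure D2:**
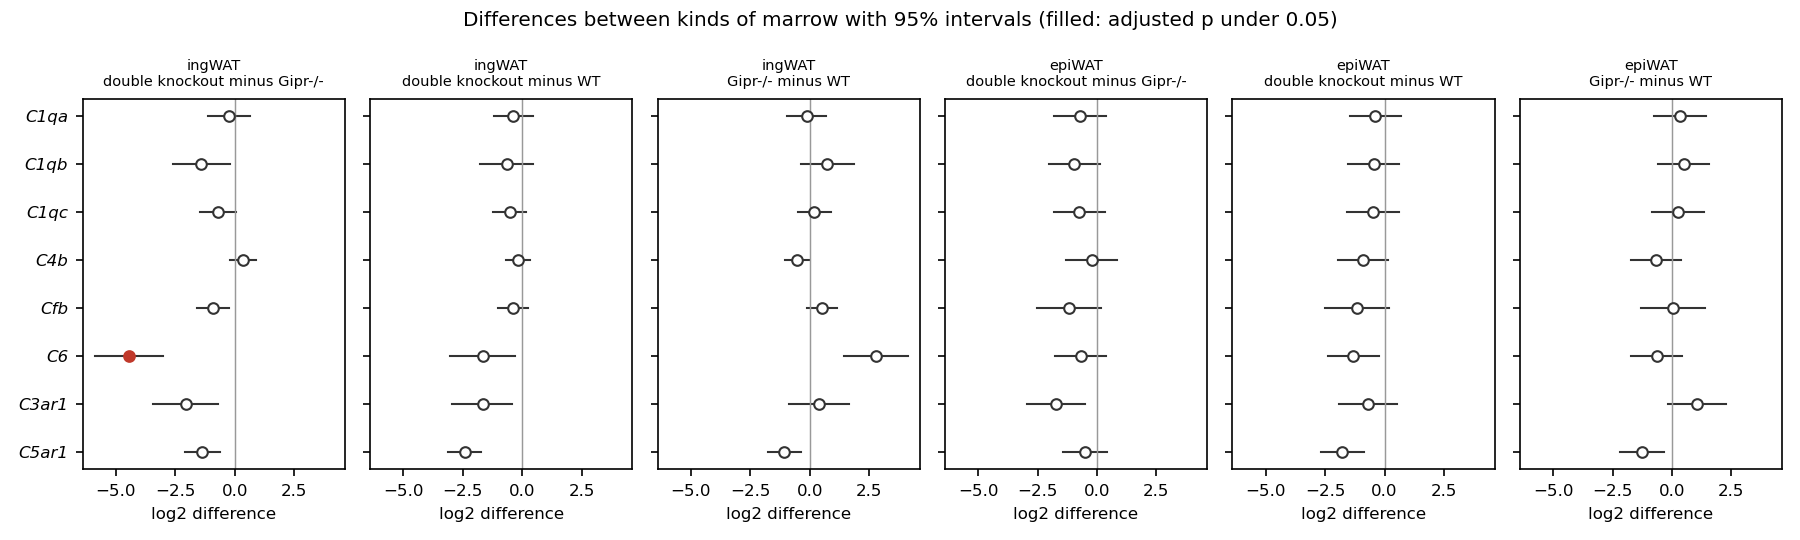
Log2 difference between kinds of marrow for each complement gene (points) with the 95% interval of the limma fit (lines), in ingWAT and epiWAT. The 1 filled point, C6 in ingWAT with double-knockout minus Gipr-/- marrow at -4.45, is the difference with an adjusted p under 0.05.

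In epididymal fat no complement gene passed the threshold between kinds of marrow. Of these 8 genes 0 were called for double-knockout minus Gipr-/-, for double-knockout minus WT and for Gipr-/- minus WT marrow, and of all 14502 genes 0 (0.0%) in each of these limma comparisons, with 1555, 444 and 1052 genes at an unadjusted p under 0.05. C5ar1 again separated the knockout marrows from WT. Its values were 6.45, 7.96, 6.59 and 7.44 with double-knockout marrow and 6.57, 7.83, 8.06 and 8.05 with Gipr-/- marrow, against 9.35, 8.30, 9.06 and 8.84 with WT marrow. Every array with either knockout marrow lay below every WT array, and the knockout groups overlapped. The difference was -1.78 for double-knockout minus WT (SE 0.42, 3.42-fold, limma adjusted p = 0.999) and -1.26 for Gipr-/- minus WT (SE 0.42, 2.39-fold, adjusted p = 0.579). C5ar1 was the 1 gene of these 8 without overlap in each of these comparisons, against 2.32% and 5.04% of all genes.

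C3ar1 in epiWAT was 9.14, 11.50, 10.04 and 10.65 with double-knockout marrow and 11.32, 12.02, 13.27 and 11.70 with Gipr-/- marrow, against 12.14, 10.36, 10.51 and 11.10 with WT marrow. The Gipr-/- arrays tended to the upper end, and all 3 groups overlapped. The difference was -1.74 (SE 0.56, limma adjusted p = 0.305) between double-knockout and Gipr-/- marrow and 1.05 (SE 0.56, adjusted p = 0.728) between Gipr-/- and WT marrow. C6 was 9.23 to 10.95 with double-knockout, 9.44 to 11.62 with Gipr-/- and 10.72 to 11.85 with WT marrow, so that the high values with Gipr-/- marrow seen in ingWAT were not set apart in epiWAT. Its difference from Gipr-/- marrow was -0.68 with double-knockout marrow (SE 0.49, adjusted p = 0.634), and that from WT marrow -1.32 (SE 0.49, adjusted p = 0.999).

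The C1q subunits, Cfb and C4b overlapped between all kinds of marrow in epiWAT. For double-knockout minus Gipr-/- marrow the differences of C1qa, C1qb and C1qc were -0.72, -0.95 and -0.75 (SE 0.50, 0.49 and 0.50), that of Cfb -1.18 (SE 0.62) and that of C4b -0.23 (SE 0.48), with limma adjusted p between 0.516 and 0.887. All 8 genes had negative differences there, with a median of -0.74, against 50.3% of all genes and a median near 0. The groups did not overlap for 0 of the 8 genes, against 6.05% of all genes. Double-knockout array 1, the array with the high epididymis marker mean, was the lowest double-knockout array for each of the 8 genes. Without it and Gipr-/- array 1 the C4b difference turned to 0.27 (adjusted p = 0.855), and the differences were -0.44 for C1qa (adjusted p = 0.807) and -1.60 for C3ar1 (adjusted p = 0.389). The macrophage marker mean in the same arrays was 8.99 to 10.66 with double-knockout, 10.07 to 11.26 with Gipr-/- and 9.95 to 11.01 with WT marrow, with 8.99 in double-knockout array 1. The lipid-associated macrophage list had array means of 8.23 to 9.66 with double-knockout, 10.88 to 12.11 with Gipr-/- and 8.60 to 10.54 with WT marrow. Its 8 genes all had negative differences for double-knockout minus Gipr-/- marrow (0 called). The part of cell content in these values was not tested.

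Between depots, C6 was again the 1 gene of these 8 that passed the threshold. With double-knockout marrow it fell by 3.22 in ingWAT relative to epiWAT (SE 0.62, 9.34-fold, limma adjusted p = 0.00798), and with WT marrow by 2.87 (SE 0.57, 7.33-fold, adjusted p = 0.0149). With Gipr-/- marrow the ingWAT values (10.47 to 12.30) covered the range of the epiWAT values (9.44 to 11.62) in part, and the difference was 0.55 (SE 0.62, adjusted p = 0.699). C6 was the 1 gene of these 8 called with double-knockout and with WT marrow, and 0 were called with Gipr-/- marrow. Over all genes 568 (3.92%) were called with double-knockout, 89 (0.614%) with Gipr-/- and 286 (1.97%) with WT marrow. The call with double-knockout marrow was lost with only these 2 groups in the fit (adjusted p = 0.112), without ingWAT double-knockout array 1 (-2.84, adjusted p = 0.0633) and without both lymphocyte-high arrays (-3.27, adjusted p = 0.078). The call with WT marrow was lost without ingWAT array 3 (-2.81, adjusted p = 0.0501) or epiWAT array 3 (-2.73, adjusted p = 0.0535).

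The remaining 7 genes did not pass between depots, but most values were lower in ingWAT. All 8 differences were negative with double-knockout and with WT marrow, and 6 of 8 with Gipr-/- marrow. Their medians were -0.82 with double-knockout, -0.76 with Gipr-/- and -0.83 with WT marrow, against medians over all genes of -0.02, 0.02 and -0.07. C3ar1 differed by -1.85 (SE 0.64, limma adjusted p = 0.104) with double-knockout, -1.53 (SE 0.64, adjusted p = 0.263) with Gipr-/- and -0.87 (SE 0.59, adjusted p = 0.479) with WT marrow. C1qb differed by -1.36, -0.91 and -1.15 in the same order (SE 0.56, 0.56 and 0.52). Without both lymphocyte-high arrays the differences with double-knockout marrow were -0.36 for C3ar1 (adjusted p = 0.878), -0.43 for C1qb (adjusted p = 0.833) and 0.25 for C1qa (adjusted p = 0.901). C1qa differed by -0.59, -1.07 and -0.59, C1qc by -0.82, -0.86 and -0.79, Cfb by -0.09, -0.36 and -0.85, and C4b by -0.07, -0.67 and -0.82 in that order. The C5ar1 difference was 0.03 (SE 0.40) with Gipr-/- and -0.17 (SE 0.37) with WT marrow, and with double-knockout marrow every ingWAT array (6.16 to 6.40) lay below every epiWAT array (6.45 to 7.96). Depots did not overlap for 2 of 8 genes (C5ar1 and C6) with double-knockout, 1 of 8 (C3ar1) with Gipr-/- and 1 of 8 (C6) with WT marrow, against 15.5%, 16.8% and 11.7% of all genes. The macrophage marker list moved the same way, with 10 of 12 differences negative in each kind of marrow.

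**Figure D3:**
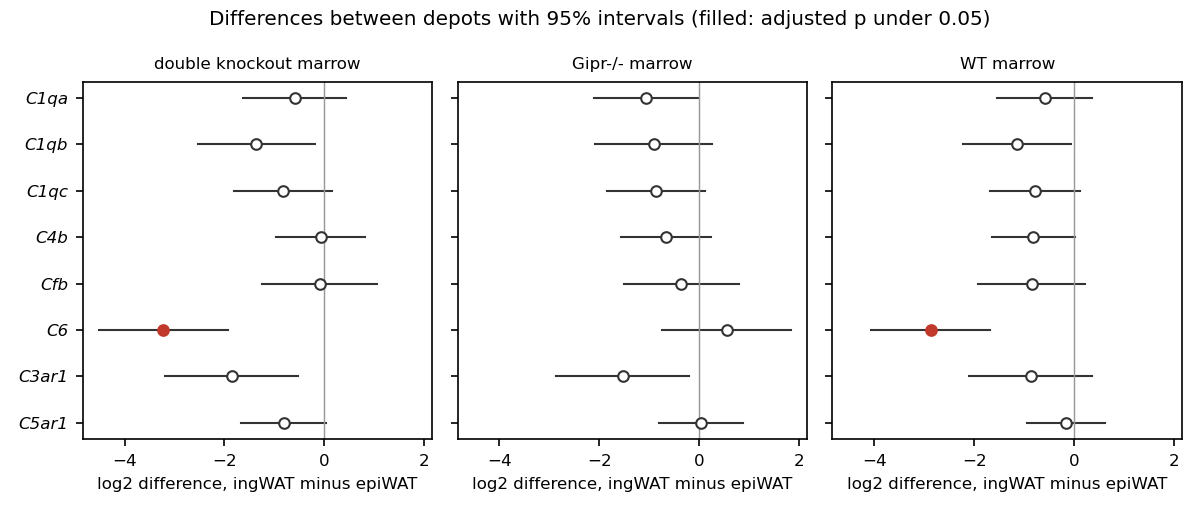
Log2 difference of ingWAT minus epiWAT for each complement gene (points) with the 95% interval of the limma fit (lines), for each kind of marrow. C6 is below 0 with double-knockout (-3.22) and WT marrow (-2.87), both filled because their adjusted p was under 0.05, and at 0.55 with Gipr-/- marrow.

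Whether the effect of the marrow differed between depots was tested in the fit of all arrays. For C6 the difference of double-knockout minus Gipr-/- marrow was more negative in ingWAT than in epiWAT (difference between depots -3.77, SE 0.87, limma adjusted p = 0.0499). That was the 1 call among these 8 genes, against 104 of 14502 genes (0.717%), and it lay at the edge of the threshold. It was lost in 5 of 7 planned settings and without 17 of the 22 single arrays (adjusted p up to 0.15), as well as without both lymphocyte-high arrays (-3.82, adjusted p = 0.183). It was kept when ingWAT WT array 1 or 2, ingWAT Gipr-/- array 3, ingWAT double-knockout array 2 or epiWAT double-knockout array 1 was left out. For Gipr-/- minus WT marrow the depots differed by 3.42 for C6 (SE 0.84, limma adjusted p = 0.339). No complement gene and 0 of 14502 genes (0.0%) passed there or for double-knockout minus WT marrow, with 1153 and 1238 genes at an unadjusted p under 0.05. The adjusted p of the other 7 genes in these 3 tests lay between 0.566 and 1.0.

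The order of the 6 groups differed between C6 and C5ar1. From high to low, mean C6 was 11.43 in epiWAT with WT marrow, 11.34 in ingWAT with Gipr-/-, 10.79 in epiWAT with Gipr-/-, 10.11 in epiWAT with double-knockout, 8.56 in ingWAT with WT and 6.89 in ingWAT with double-knockout marrow, and each pair of neighbours overlapped. Mean C5ar1 was 8.89 in epiWAT and 8.72 in ingWAT with WT, 7.66 in ingWAT and 7.63 in epiWAT with Gipr-/-, and 7.11 in epiWAT and 6.30 in ingWAT with double-knockout marrow. For C5ar1 the order thus followed the marrow. Neighbours did not overlap between ingWAT with WT and ingWAT with Gipr-/- marrow or between epiWAT and ingWAT with double-knockout marrow. C5ar1 lies 2.9 Mb from Gipr, which both knockout marrows lack, and the part of this position in the C5ar1 values was not tested.

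Other complement genes were taken from a list of 43 by role, of which 39 were in the table. In ingWAT, 31 of them were tested. Relative to Gipr-/- marrow, 3 of 31 fell with double-knockout marrow and 0 rose, and with Gipr-/- relative to WT marrow 1 of 31 rose and 0 fell. Over all 14502 genes, 384 fell and 121 rose (3.48% called) with double-knockout relative to Gipr-/- marrow, and 30 rose and 4 fell (0.234% called) with Gipr-/- relative to WT marrow. Those that passed were inhibitors. Cd59a, a membrane protein that blocks assembly of the attack complex, was 14.95, 15.75 and 15.12 with double-knockout marrow and 16.82, 17.24 and 17.22 with Gipr-/- marrow, against 15.22, 15.30, 14.67 and 15.77 with WT marrow. All Gipr-/- arrays lay above all others, as for C6, and both comparisons use these Gipr-/- arrays. Cd59a fell by 1.82 on the log2 scale with double-knockout relative to Gipr-/- marrow (SE 0.30, limma adjusted p = 0.0101) and rose by 1.85 with Gipr-/- relative to WT marrow (SE 0.28, adjusted p = 0.0307).

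Serping1, the inhibitor of the C1 proteases, was 14.29, 14.93 and 14.37 with double-knockout marrow and 16.60, 16.46 and 16.08 with Gipr-/- marrow, against 14.08, 15.03, 15.03 and 15.37 with WT marrow. The Gipr-/- arrays again lay above all others. It fell by 1.85 on the log2 scale with double-knockout relative to Gipr-/- marrow (SE 0.32, limma adjusted p = 0.0124), and its difference between Gipr-/- and WT marrow was 1.50 (SE 0.30, adjusted p = 0.0565). Cd59b, the copy of Cd59a, fell by 1.24 with double-knockout relative to Gipr-/- marrow (SE 0.29, limma adjusted p = 0.0411) and differed by 1.42 between Gipr-/- and WT marrow (SE 0.27, adjusted p = 0.0552). The probes of Cd59a and Cd59b may not tell these related genes fully apart, so their calls cannot be taken as independent. Cd55, a membrane protein that takes apart the convertases, differed by 1.01 between Gipr-/- and WT marrow (SE 0.34, adjusted p = 0.185). Itgam, a subunit of complement receptor 3, differed by -1.67 between double-knockout and Gipr-/- marrow (SE 0.44, adjusted p = 0.061).

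These calls rested on few arrays. Without both lymphocyte-high arrays the differences from Gipr-/- marrow were -1.34 for Cd59a, -1.44 for Serping1 and -0.81 for Cd59b (adjusted p = 0.191, 0.198 and 0.375), with 1 double-knockout array left. The double-knockout minus Gipr-/- call of Cd59a was lost without double-knockout array 1 (-1.66, adjusted p = 0.0597) or Gipr-/- array 2 (-1.75, adjusted p = 0.0641). That of Serping1 was lost without double-knockout array 1 (adjusted p = 0.0686) or 3 (0.0507), or Gipr-/- array 1 (0.0634) or 2 (0.0705), with differences of -1.81 to -1.73. That of Cd59b was lost without 8 of the 10 single arrays, all but WT array 4 and double-knockout array 2 (adjusted p up to 0.173). The Gipr-/- minus WT call of Cd59a was lost without 7 of the 10, all but WT array 4 and double-knockout arrays 1 and 2 (adjusted p up to 0.209), with the muscle covariate (1.73, adjusted p = 0.0817) in 1 fit of all arrays (adjusted p = 0.12), with quantile normalization (0.0542) and without a trend (0.0569). In 1 fit of all arrays the double-knockout minus Gipr-/- call was lost for Cd59a (adjusted p = 0.101) and Cd59b (0.22), and that of Cd59b also with quantile normalization (0.0943) and without a trend (0.0575).

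**Figure D4:**
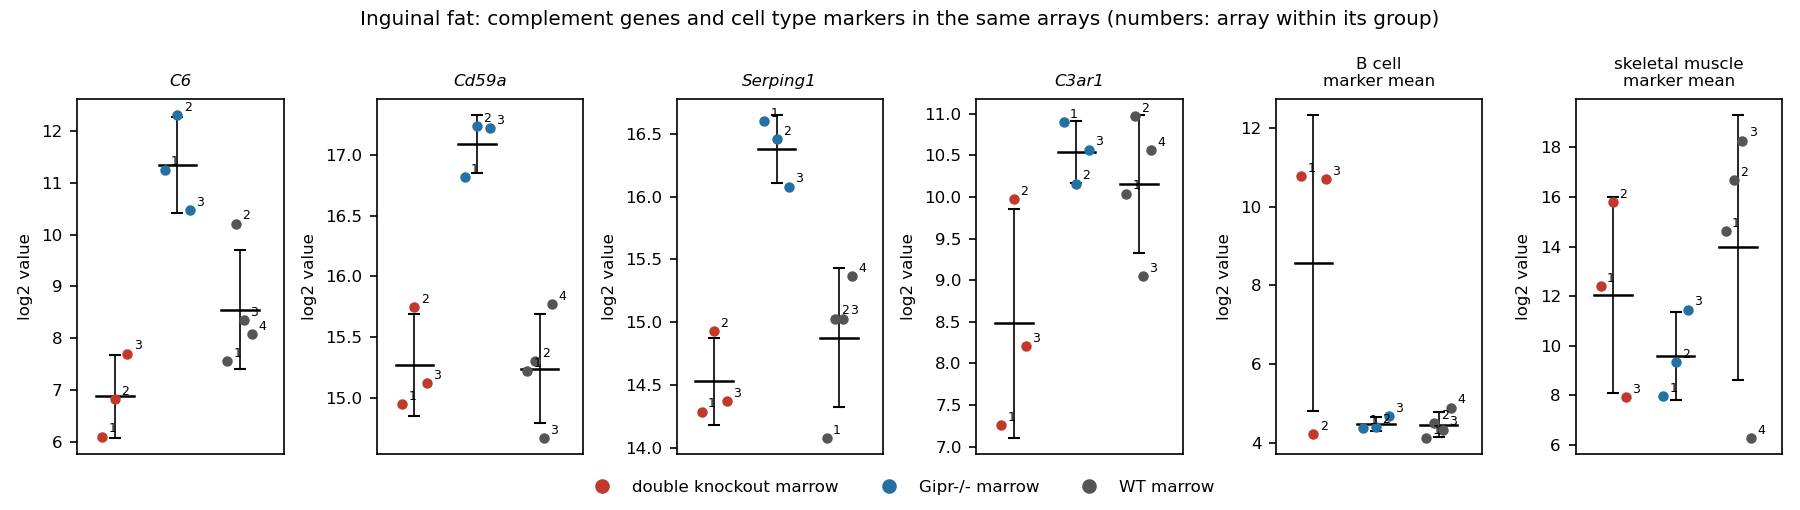
Log2 values in each ingWAT array (points, numbered within the group) of C6, Cd59a, Serping1 and C3ar1, and the mean of the B cell and skeletal muscle marker lists, with group mean (line) and SD (bars). The Gipr-/- arrays are the highest for C6, Cd59a and Serping1, and double-knockout arrays 1 and 3 have B cell marker means of 10.77 and 10.70 and the lowest C3ar1 values.

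In epiWAT 0 of 34 other complement genes tested passed in any comparison of marrow, and between depots 0 of 34 passed with any kind of marrow. In epiWAT, double-knockout against Gipr-/- marrow gave its smallest p for Itgax, a complement receptor subunit of macrophages and dendritic cells (-1.47, SE 0.46, limma adjusted p = 0.302). Gipr-/- against WT marrow gave it for C5ar2, another receptor of C5a (-1.23, SE 0.39, limma adjusted p = 0.579). C5ar2 was dim, at 4.43 with Gipr-/- and 5.66 with WT marrow, below the median of all gene means, 6.33. Without the 2 epiWAT arrays that stood apart its difference was -0.87. Between depots with WT marrow the leading one was C7, which follows C6 in the attack complex, at -3.39 (SE 0.94, adjusted p = 0.0644). C7 was 9.40 to 10.97 in ingWAT and 13.12 to 14.59 in epiWAT with WT marrow. With double-knockout marrow the smallest p was that of C4bp, an inhibitor of the classical pathway (-6.09, SE 1.82, adjusted p = 0.0658). C4bp averaged 3.88 ± 0.67 in ingWAT and 9.97 ± 4.75 in epiWAT (SD, n = 3 and 4), and leaving out 1 array in turn moved the difference between -7.66 and -4.07, the smallest without the epiWAT array with the high epididymis marker mean. The part of that content was not tested.

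The genes whose values ran most like each complement gene were found by Pearson correlation over the 22 arrays after each depot's mean was subtracted, among 14494 genes. For the mean of the C1q subunits the first was Csf1r, the macrophage growth factor receptor (r = 0.93, Spearman rho = 0.94). Taken singly, the first was Serpinh1 for C1qa (r = 0.88), Tubb2a for C1qb (r = 0.90) and Unc93b1 for C1qc (r = 0.89). Csf1r came next for C1qa (r = 0.87) and C1qb (r = 0.90) and was not among the 3 closest to C1qc. For C3ar1 the first was Atf3, a stress-response transcription factor (r = 0.93, rho = 0.91). Cfb ran most like Cidec, a lipid droplet protein of adipocytes (r = 0.94, rho = 0.95), C5ar1 like Clec4a1, a lectin receptor gene of myeloid cells (r = 0.87, rho = 0.81), and C6 like Fgf1, a fibroblast growth factor (r = 0.87, rho = 0.87). With Cidec, Cfb had r = 0.95 in epiWAT and 0.91 in ingWAT, and with the macrophage marker mean 0.96 and 0.75. C4b ran most like its neighbour C4a (r = 0.90, rho = 0.84), with r = 0.98 in epiWAT and 0.43 in ingWAT. These are descriptions over arrays that share the groups and the cell content described above. Among themselves the C1q subunits correlated with r between 0.44 and 0.77 over the 10 ingWAT arrays and between 0.92 and 0.95 over the 12 epiWAT arrays. C6 and Cfb had r = 0.81 in ingWAT and 0.72 in epiWAT, and C6 and C4b -0.47 and 0.73.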

How the data were processed

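Total RNA (100 ng per array) of frozen fat was labelled with a whole-transcript kit for 1-colour Affymetrix arrays, per the labels' protocols. The authors deposited 1 table of normalized log2 values; the base was taken as 2, with values of 1.92 to 19.9, and no source used here states the normalization. Partek 6.6 is named in the submitters' processing notes. Of 21793 features, 19341 had 1 gene symbol in the platform annotation and 2452 had none. For the 4 genes with 2 features, only the brighter feature, by its average signal, was used. Array medians were 6.11 to 6.54, within-group correlations 0.911 to 0.984, and 0 pairs of arrays were identical. The number of arrays limits the precision.

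Differences were fitted with limma 3.58.1 (R 4.3.3; lmFit, eBayes with a trend), marrow comparisons within each depot, depot comparisons and depot differences over all 22 arrays. The dimmest 25% of genes were left out, which left 14502. Tests were two-sided, with Benjamini-Hochberg adjustment over all genes tested and a threshold of 0.05; the procedure was tested on simulated data. Array numbers follow accession order and pair nothing.

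The genes and lists were chosen with earlier results of these data known. Open to naming in a comparison were the chosen genes and the listed complement genes past the threshold. Where under 4 of the listed genes passed, the 4 with the smallest p were open to naming. For likeness these were the genes with the highest r. Not all genes open to naming are given in the text. Motifs were searched in 32851 RefSeq windows of GRCm38.p6.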

Additional observations from a re-analysis of the deposited data

Results flagged for a closer look

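The smallest or largest value of each group of 4 arrays was set against the other 3 for the 8 complement genes, in 32 groups. The gap to the nearest array, as a share of the group's range, exceeded Dixon's 95% critical value in 2 of them, and chance gives about 1 in 20 groups. C4b was 13.04 in epiWAT array 1 with double-knockout marrow, against 15.01 in the next lowest array (share 0.877). This is the array with the highest epididymis marker mean, and its adipocyte marker mean of 15.32 was the lowest of all arrays. C5ar1 was 6.57 in epiWAT array 1 with Gipr-/- marrow, against 7.83 in the next lowest array (share 0.845), and this is the array with the highest germ cell marker mean. The part of that content in either value was not tested.

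For C6 the test of the difference between depots passed just under the threshold, at -3.77 for double-knockout minus Gipr-/- marrow in ingWAT relative to epiWAT (limma adjusted p = 0.0499). It did not pass in 5 of 7 planned settings (adjusted p up to 0.0644), nor without 17 of the 22 single arrays (up to 0.15).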

How the results depend on the processing

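No paired analysis was possible because the labels give no replicate numbers shared between groups. Of the differences of single genes under all alternatives, 2442 kept their direction and their side of the threshold, 61 newly passed it, 63 no longer passed it and 37 changed sign. In epiWAT 0 of the 8 complement genes were called under every setting run. The lymphocyte, epididymis and muscle alternatives were chosen after seeing the data. The cause of the changes was not tested.

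In ingWAT, the number of the 8 genes called for double-knockout minus Gipr-/- marrow (1 as reported) was 2 with quantile normalization, with each array minus its median and with robust eBayes (C5ar1 and C6), 3 with array weights (C3ar1 too) and 0 without both lymphocyte-high arrays. For double-knockout minus WT marrow (0 as reported) it was 1 (C5ar1) with quantile normalization, robust eBayes, all features, 1 fit of all arrays and the muscle covariate, and 2 (C3ar1 too) with array weights. For Gipr-/- minus WT marrow it was 1 (C6) with array weights and 1 fit of all arrays. Between depots with double-knockout marrow (1 as reported) it was 3 (C1qb, C3ar1 and C6) with array weights, and 0 with only the 2 groups compared and without both lymphocyte-high arrays. For the depot difference of double-knockout minus Gipr-/- marrow (1 as reported) it was 0 with no filter, with each array minus its median, without a trend, with robust eBayes, with all features and without both lymphocyte-high arrays.

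Leaving out 1 array in turn, the count ranged from 0 (without Gipr-/- array 2) to 4 (without double-knockout array 2: C1qb, C3ar1, C5ar1 and C6) for double-knockout minus Gipr-/- marrow in ingWAT. It ranged from 0 to 2 for double-knockout minus WT and from 0 to 1 for Gipr-/- minus WT marrow, both highest without double-knockout array 2. Between depots it ranged from 0 to 2 with double-knockout marrow and from 0 to 1 with WT marrow, and from 0 to 1 for the depot difference.

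The count of all genes called moved far more: with the planned settings from 352 to 1797 for double-knockout minus Gipr-/-, from 0 to 555 for double-knockout minus WT and from 1 to 401 for Gipr-/- minus WT marrow in ingWAT. Without both lymphocyte-high arrays it was 0 for double-knockout minus Gipr-/- marrow. Centring on the median moved the median depot difference of all genes with Gipr-/- marrow to 0.16, against 0.02.

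Signs turned for differences that had not passed. With Gipr-/- marrow the C5ar1 depot difference was -0.23 with array weights. With double-knockout marrow the depot difference of C4b was 0.04 with quantile normalization and 0.01 with median centring, and that of Cfb 0.05 with quantile normalization. Without the 2 epiWAT arrays that stood apart, C4b was 0.27 for double-knockout minus Gipr-/- and C1qa 0.01 for double-knockout minus WT marrow. With all ingWAT arrays the regulator Clu averaged 14.91 ± 2.38 with double-knockout and 12.45 ± 0.42 with WT marrow (SD, n = 3 and 4). The regulator Cd55b averaged 13.57 ± 0.83 and 12.68 ± 0.20 in the same arrays. Without both lymphocyte-high arrays, ingWAT values were 0.60 for C1qa minus Gipr-/- marrow. Against WT marrow they were 0.47 for C1qa, 0.27 for C1qb, 0.02 for C4b, -0.29 for Clu and -0.07 for Cd55b. The depot differences were then 0.25 for C1qa, 0.11 for C4b and 0.01 for Cfb.

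Leaving out 1 array in turn in epiWAT, Gipr-/- minus WT marrow ranged from -0.04 to 0.59 for C1qa, from -0.08 to 0.48 for C1qc and from -0.36 to 0.33 for Cfb, double-knockout minus Gipr-/- from -0.46 to 0.29 for C4b, and double-knockout minus WT from -0.76 to 0.01 for C1qa. In ingWAT, Gipr-/- minus WT ranged from -0.48 to 0.20 for C1qa and from -0.02 to 0.54 for C1qc, double-knockout minus Gipr-/- from -0.66 to 0.11 for C1qa, and double-knockout minus WT from -0.29 to 0.04 for C4b. Depot differences ranged from -0.32 to 0.34 for C5ar1 with Gipr-/- marrow, and with double-knockout marrow from -0.59 to 0.16 for C4b and from -0.63 to 0.26 for Cfb.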
